A study of Homo sapiens with 16 samples.

Results

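Voltage-gated sodium, calcium and potassium channel genes were followed through neural differentiation of H9 cells, a widely used line of human embryonic stem cells. The genes were chosen by symbol and gene type alone, as protein-coding genes of 12 families, and number 70 of the 57736 genes in the deposited counts. There are 14 sodium channel genes, of which 10 SCN genes ending in A code for pore-forming alpha subunits and 4 ending in B for beta subunits. There are 26 calcium channel genes, with 10 CACNA1 pore-forming subunits, 4 CACNA2D, 4 CACNB and 8 CACNG auxiliary subunits. The 30 potassium channel genes are 8 KCNA, 2 KCNB, 4 KCNC, 3 KCND, 8 KCNH and 5 KCNQ pore-forming subunits. RNA was sequenced on D0 (undifferentiated cells), D12, D30 and D70, from cells kept in DMSO (control) or in 40 µM Thiamet-G (TMG) at every stage, D0 included, with 2 libraries in each of the 8 groups. TMG inhibits OGA, the enzyme that takes O-GlcNAc off proteins, and the design asks how a sustained rise of this modification bears on gene expression at each stage. Neural fate was induced by dual SMAD inhibition, and the cultures were then kept in neuronal medium up to D70. The study's methods call the pairs of libraries biological replicates, all from the 1 cell line, so the spread below is between cultures and not between donors.

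As background, an action potential rises when voltage-gated sodium channels open and ends when delayed rectifier potassium channels do. Calcium channels turn the depolarisation into calcium entry that drives transmitter release, pacemaking and gene expression, and auxiliary subunits set how much of each pore reaches the membrane. Immature neurons are known for a sodium channel repertoire that differs from that of mature ones, and stem cells carry channel transcripts without firing.

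Of the 70 genes, 67 passed the expression filter and were tested. CACNG2, CACNG3 and KCNA10 did not pass it, with at most 0.9 CPM in any library, where CPM puts each count on a common library size by TMM normalization and 3 counts correspond to between 0.147 and 0.291 CPM. Library totals lay between 10334908 and 19836878 counts. Log2 fold changes are given with their standard error (SE) and with p-values of edgeR's quasi-likelihood F-test, adjusted by Benjamini-Hochberg over all 24249 genes tested, and a change is called at a false discovery rate of 5%. All groups have n = 2. The treatment tag of the labels reads control for every replicate 1 and TMG for every replicate 2, so that for 8 libraries, control 2 and TMG 1 of each stage, it names the other arm than the title. The titles, which match the names of the count columns, were followed here. A split between replicates 1 and 2 of a stage is therefore also a split by that tag.

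The labelled stages were checked against marker genes. POU5F1, a pluripotency factor, lay between 824 and 893 CPM in the D0 libraries and at or under 9.13 CPM in the 12 later libraries. PAX6, a neural progenitor factor, lay between 246 and 587 CPM in 11 of those 12, and at 2.5 CPM in D70 TMG replicate 2. That library stands apart in other markers too. The sum of 10 pan-neuronal markers was 245.3 CPM in it and 1226, 623.5 and 1304 CPM in D70 control 1, D70 control 2 and D70 TMG 1. The sum of 8 mesenchyme markers was 60010 CPM in it, 45660 CPM in D70 control 2 and 30340 CPM in D30 TMG 2, against 3687 to 7351 CPM in the other D30 and D70 libraries. No mesenchyme marker was at 0 in any of the 8 late libraries. D70 control 2 also held the highest sum of 4 retina markers, 202.9 CPM, and D70 control 1 the highest level of the choroid plexus gene TTR, 9812 CPM. In bulk libraries such as these, fewer cells of a type and less RNA per cell cannot be told apart. For many of the D70 and D30 TMG results below, values without single libraries are given too. In a fit that leaves an arm with 1 library, that library is assumed to vary like the other groups.

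**Figure D1:**
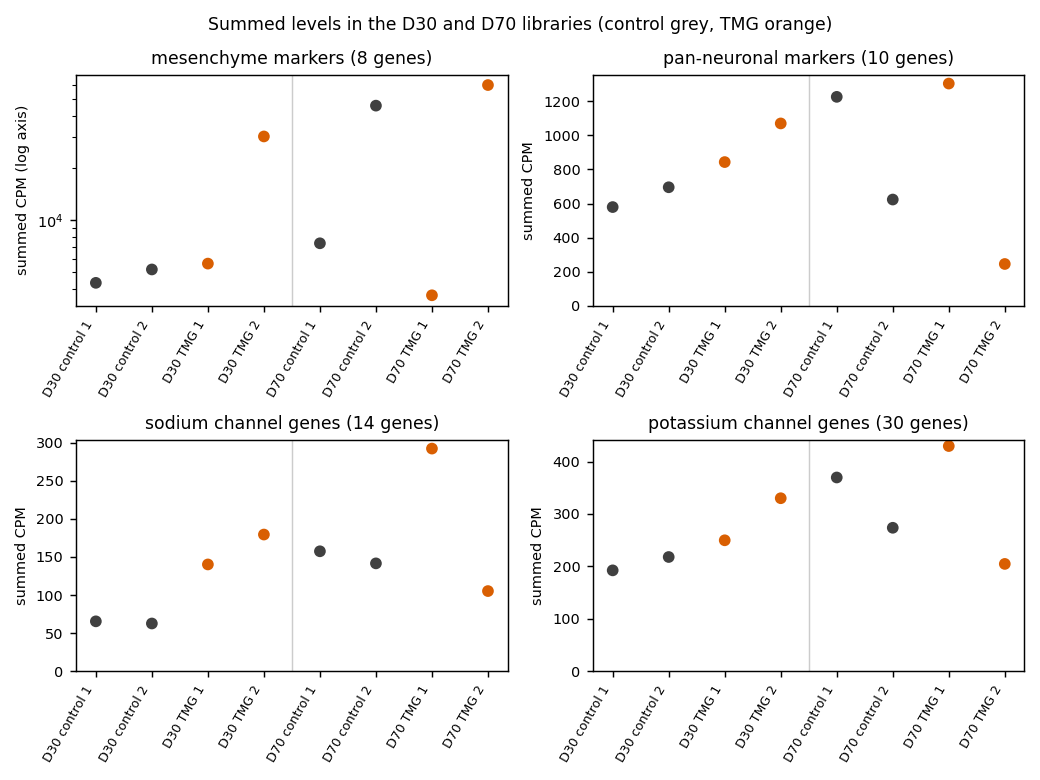
Summed CPM of 8 mesenchyme markers (log axis), 10 pan-neuronal markers, 14 sodium channel genes and 30 potassium channel genes in each of the 8 libraries of D30 and D70, 1 point per library, control in grey and TMG in orange. D70 TMG 2 has the highest mesenchyme sum, 60010 CPM, and the lowest pan-neuronal and potassium channel sums of the D70 libraries, 245.3 and 204.6 CPM.

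Undifferentiated cells already carried a set of channel transcripts. On the scale of CPM per kilobase of the canonical transcript, the highest control means on D0 were those of CACNG7 at 25.2, of the T-type calcium channel gene CACNA1H at 21.8, of the auxiliary subunit gene CACNA2D2 at 10.8 and of CACNA1A, which codes for the P/Q-type pore, at 8.63. CACNG7 belongs to the CACNG genes that code for auxiliary subunits of AMPA receptors. SCN8A, the sodium channel of the axon initial segment of mature neurons, has no canonical transcript length in the annotation used and stands outside that ranking. Its level was 88.8 and 89.6 CPM in the D0 control libraries and 93.5 and 91.9 CPM in the D0 TMG libraries. SCN4A, the skeletal muscle sodium channel, was at 22.2, 17.3, 24.8 and 24.6 CPM in the same order. The 7 skeletal muscle markers summed to 196.9, 253.0, 203.0 and 210.6 CPM in these libraries. Most of that sum was TTN, the giant sarcomere protein gene, at 189 to 239 CPM on D0 and between 171 and 307 CPM in all 16 libraries, while the muscle factor MYOD1 was at or under 0.56 CPM on D0. Their part in the SCN4A level was not tested. By contrast SCN2A and SCN3A, known as sodium channels of immature central neurons, lay between 0.699 and 1.67 CPM and between 0.309 and 0.909 CPM on D0. Some potassium channel genes were also near the counting floor, with at most 0.155 CPM for KCNA4 and 0.14 CPM for KCNC2 in any D0 library.

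The sequence just before the start of some of these genes is shown because their D0 levels lie far apart, and the genes printed were chosen after these levels were seen. RefSeq promoters (GRCh38.p14) matched 46 of the 70 genes, and 33 of them have 1 start in that table. The 100 bases before that start are printed 5′ to 3′ for 6 of these genes, with each CG dinucleotide in capitals. The window of SCN8A lies at chr12:51591133-51591232 on the plus strand and that of CACNA1B, the N-type calcium channel pore, at chr9:137877682-137877781 on the plus strand. Those of KCNA4 and KCNC2, which code for an A-type and a fast delayed rectifier potassium channel, lie at chr11:30017031-30017130 on the minus strand and chr12:75209840-75209939 on the minus strand. The window of CACNA1E, the R-type calcium channel pore, lies at chr1:181483417-181483516 on the plus strand, and SCN2B, a sodium channel beta subunit, at chr11:118176640-118176739 on the minus strand.
SCN8A: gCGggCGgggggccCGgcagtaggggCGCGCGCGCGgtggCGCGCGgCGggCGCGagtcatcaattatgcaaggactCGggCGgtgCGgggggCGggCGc
CACNA1B: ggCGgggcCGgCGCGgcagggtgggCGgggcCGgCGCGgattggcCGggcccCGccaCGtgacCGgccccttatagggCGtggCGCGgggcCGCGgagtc
KCNA4: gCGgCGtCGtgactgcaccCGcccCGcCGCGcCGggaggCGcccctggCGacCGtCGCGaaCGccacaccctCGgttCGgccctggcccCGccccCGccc
KCNC2: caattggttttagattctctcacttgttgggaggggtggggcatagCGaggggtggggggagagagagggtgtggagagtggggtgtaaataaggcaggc
CACNA1E: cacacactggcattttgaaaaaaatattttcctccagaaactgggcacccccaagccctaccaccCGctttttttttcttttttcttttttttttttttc
SCN2B: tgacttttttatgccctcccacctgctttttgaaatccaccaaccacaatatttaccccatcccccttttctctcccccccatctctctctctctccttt

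In the 250 bases before the start, CG occurred 45 times for SCN8A, 39 times for CACNA1B, 30 times for KCNA4, 4 times for CACNA1E, 3 times for KCNC2 and 0 times for SCN2B, where the median over the 35116 promoters in the table is 11. The mean D0 control levels of the same genes were 89.2, 55.7, 0.0309, 5.97, 0.0699 and 0.628 CPM. KCNA4 thus pairs a CG-rich start with a level near 0. Over the 33 genes with 1 start, the median D0 control mean was 5.94 CPM for the 24 at or above 11 CG, with a range from 0.0309 to 89.2 CPM, and 0.628 CPM for the 9 below it, with a range from 0 to 8.83 CPM. These counts describe the windows and were not tested against the levels.

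**Figure D2:**
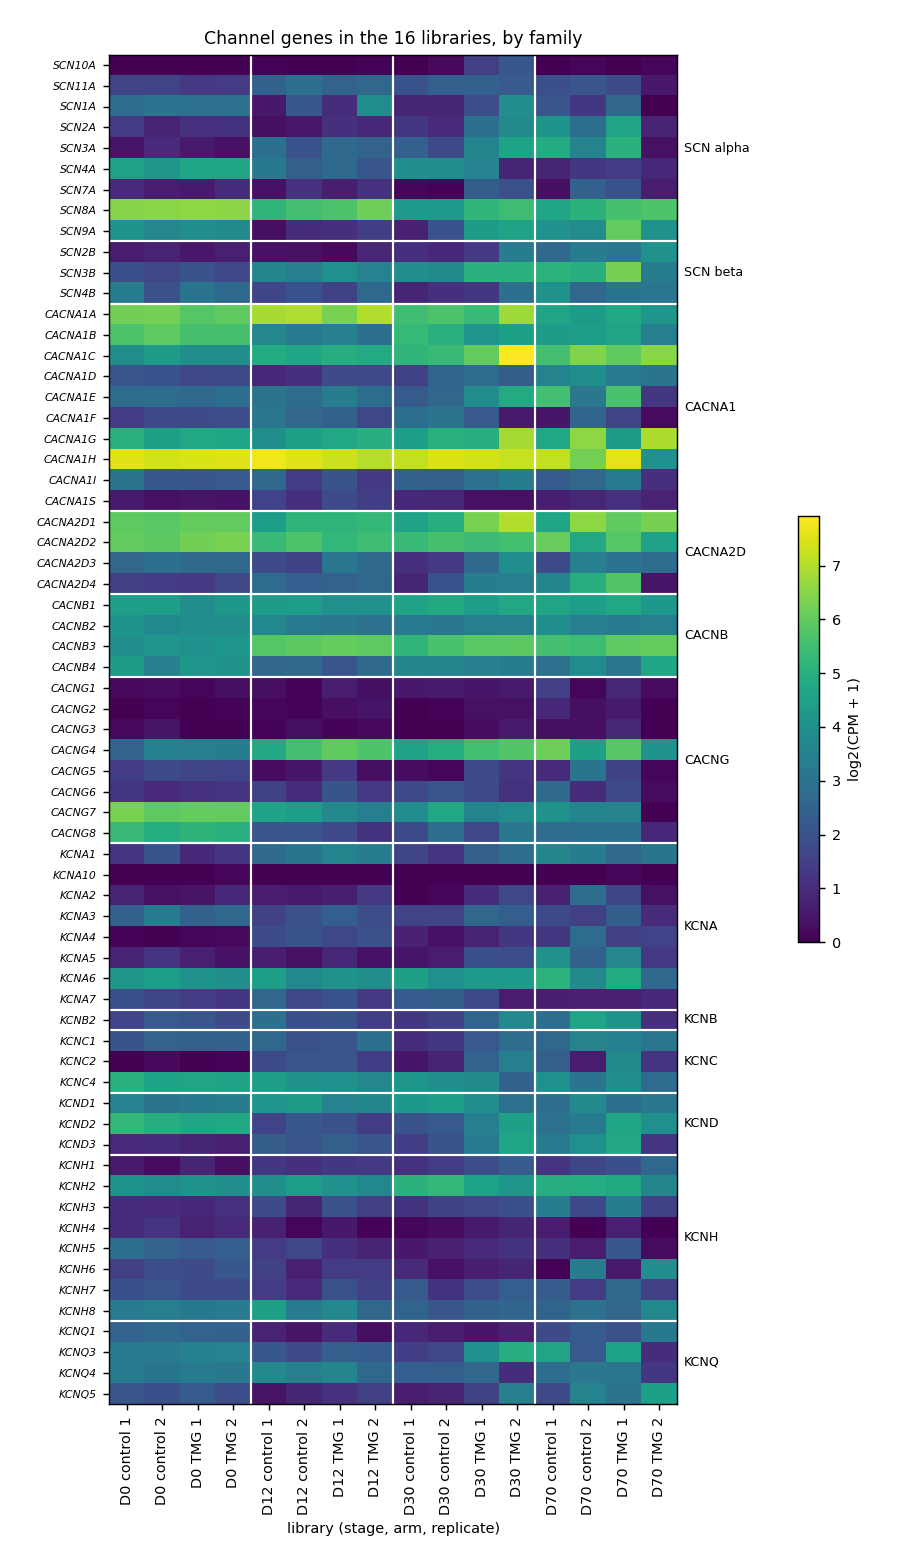
Levels of 65 channel genes in the 16 libraries as log2(CPM + 1), with genes in rows grouped by family, libraries in columns ordered by stage, and white lines between families and stages. SCN8A is bright on D0 (88.8 to 93.5 CPM) and CACNA1H in every library but D70 TMG 2 and D70 control 2, where it is at 15.2 and 76 CPM.

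Between D0 and D12, neural induction was accompanied by losses and gains of similar number. In control cells 7 channel genes rose and 8 fell, 15 of 67, where 16.7% of all genes tested were called, 6.97% higher and 9.71% lower. In TMG cells, which share no library with the control, 7 rose and 8 fell, against 16.4% of all genes, 7.24% higher and 9.19% lower. Of these calls 13 were made in both arms, all in the same direction, where 12.2% of all genes were called in both, all 2955 in the same direction. The count fell to between 4 and 8 in control and between 4 and 6 in TMG cells when any 1 library of either stage was left out, while the share of all genes fell to between 3.96% and 6.96% and between 3.21% and 6.36%.

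Among the genes that fell was KCND2, the A-type potassium channel of neuronal dendrites, at 37.3 and 29.4 CPM in D0 control, 24.8 and 25.4 CPM in D0 TMG, 2.01 and 3.45 CPM in D12 control, and 2.91 and 1.62 CPM in D12 TMG. All D12 libraries lay below all D0 libraries, with a log2 fold change of −3.61 in control (SE 0.46, adjusted p = 0.00131 by edgeR) and −3.46 in TMG cells (SE 0.46, adjusted p = 0.00143). SCN9A, a sodium channel of sensory neurons, went from 16.1, 11.6, 13.8 and 12.5 CPM to 0.246, 1.04, 1.14 and 1.74 CPM, in the order control 1, control 2, TMG 1, TMG 2 used from here on, again without overlap, and fell by 4.43 in control (SE 0.85, adjusted p = 0.00756), a call lost without D12 control 1 (−3.7). CACNA1B went from 51.2, 60.2, 47.3 and 47.3 CPM to 11.8, 8.87, 9.82 and 6.52 CPM, and fell by 2.43 in control (SE 0.38, adjusted p = 0.00298). KCNQ1, CACNG8 and, in control cells, SCN8A and CACNA1D were also called lower, and in TMG cells CACNB2 and CACNB4. Whichever library of the arm was left out, CACNA1D and CACNG8 in control and CACNB2 and CACNB4 in TMG cells lost their call. KCNQ1, SCN8A and, in TMG cells, CACNG8 lost it in some of these cases. KCNQ1 shares exon sequence with the antisense transcript KCNQ1OT1, and reads of the pair may not be told apart.

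The 7 genes that rose were the same in both arms and include CACNB3, CACNG4, KCNA1, KCNA4, KCNC2 and CACNA1S. Of these calls and those of the genes that fell, CACNB3, CACNA1B and KCND2 kept theirs in each of the 8 fits that leave out 1 library of the arm compared, 4 in each arm. Of the rises named here, CACNG4 and KCNC2 kept theirs in none. CACNB3, a beta subunit that brings calcium channel pores to the membrane, went from 14, 16.6, 15.2 and 16.8 CPM to 56.2, 59.2, 65.4 and 61.5 CPM. Its replicates lay close together, and it rose by 1.92 on the log2 scale in control (SE 0.19, adjusted p = 0.000398 by edgeR) and by 1.99 in TMG cells (SE 0.19, adjusted p = 0.000268). KCNA4 had 1 count over both D0 control libraries and 110 over both of D12, a ratio of 86.8 with a 95% exact counting interval from 15.3 to 3460, and KCNC2 had 2 and 110, a ratio of 43.4 with an interval from 11.7 to 363. Both were near absence on D0 and at 1.74 to 3.28 CPM in every D12 library. CACNA1S, the skeletal muscle L-type pore, was called too, at only 1.09 to 2.6 CPM on D12.

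Later steps gave fewer calls. From D12 to D30 in control, SCN8A and KCNA1 fell and CACNA1B rose, 3 of 67 genes at a background of 3.6%, 1.91% higher and 1.69% lower. SCN8A dropped from 35.5 and 46.7 CPM to 18.5 and 18.1 CPM, a log2 fold change of −1.17 (SE 0.22, adjusted p = 0.0205 by edgeR). CACNA1B went back up from 11.8 and 8.87 CPM to 38.3 and 31.9 CPM (log2 fold change 1.76, SE 0.37, adjusted p = 0.0297). None of the 3 calls was left when any 1 of the 4 libraries was taken out, though DESeq2 made 9, at a DESeq2 background of 12.7%. In TMG cells KCND2 rose from 2.91 and 1.62 CPM to 9.71 and 21.0 CPM (log2 fold change 2.75, SE 0.45, adjusted p = 0.0299), and CACNA1S fell, 2 of 67 at a background of 0.511%, 0.388% higher and 0.124% lower. Without D30 TMG 2 the KCND2 value was 2.09 and no longer a call, nor was it one without either D12 TMG library. The CACNA1S call was lost when any 1 of the 4 TMG libraries compared was left out. From D30 to D70 in control 1 gene was called, KCNA1, against 0.384% of all genes, 0.305% higher and 0.0784% lower, and DESeq2 called 19, of which 17 were higher on D70, at a DESeq2 background of 8.38% in all and 5.28% higher. KCNA1, the axonal delayed rectifier subunit, stood at 2.16 and 1.35 CPM on D30 and at 11.3 and 9.17 CPM on D70 (log2 fold change 2.55, SE 0.46, adjusted p = 0.0482), a call lost when any 1 of the 4 libraries was left out. From D30 to D70 in TMG cells edgeR called 0 channel genes, against 0.00825% of all genes, 0.00412% in each direction. An unadjusted p under 0.05 was reached by 6 of 67, against 11.0% of all genes, and DESeq2 called 2, against 1.85%. The 6 include SCN10A, which passed the expression filter only through the D30 TMG libraries and so was bound to fall from there.

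Across the whole course the sodium channels SCN8A and SCN4A and the presynaptic calcium channels CACNA1A and CACNA1B fell, while SCN3A, the beta subunits SCN2B and SCN3B, the L-type calcium channels CACNA1C and CACNA1D, and potassium channels such as KCNA1 and KCND3 rose. From D0 to D70, 16 channel genes rose and 8 fell in control, 24 of 67 where 29.8% of all genes were called, and 15% rose and 14.7% fell. In TMG cells 18 rose and 7 fell, 25 of 67 against 29.0%, 14.9% higher and 14.1% lower. The channel genes were therefore called at a share near the background, and the rises outnumbered the falls. Both arms called 21 of the same genes, each in the same direction, where 21.9% of all genes were called in both, 5306 of 5307 in the same direction. The median log2 fold change in control was 0.58 over the 66 genes above the counting floor and 0.03 over all genes tested. The 66 include CACNG1, which passed the expression filter only through D70 libraries and so was bound to be high there. The D70 control mean was the highest of the 4 stages for 31 of the 67 genes, 46.3%, against 27.9% of all genes tested, and the D0 mean for 20, 29.9% against 33.6%. CACNG1 is among the 31 as well, a place that its way through the filter favoured. Counts in control were 11 without D0 control 1, 10 without D0 control 2, 13 without D70 control 1 and 20 without D70 control 2, where 14.2%, 15.2%, 18.3% and 23.9% of all genes were called. SCN8A, SCN3B, CACNA1A, CACNA1D, CACNB3, KCNA1, KCNA4 and KCND2 kept their call in control in each of these 4 cases. With D70 taken from the replicate 1 libraries of both arms, which leaves out the library that stands apart, 33 genes were called in control, where 33.9% of all genes were, and 32 in TMG cells, where 31.1% were. Each D70 arm holds 1 library in that fit, so its spread comes from the other groups. The calls in control of that fit, and of the fit without D70 control 2, include CACNG1, named above for the filter.

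**Figure D3:**
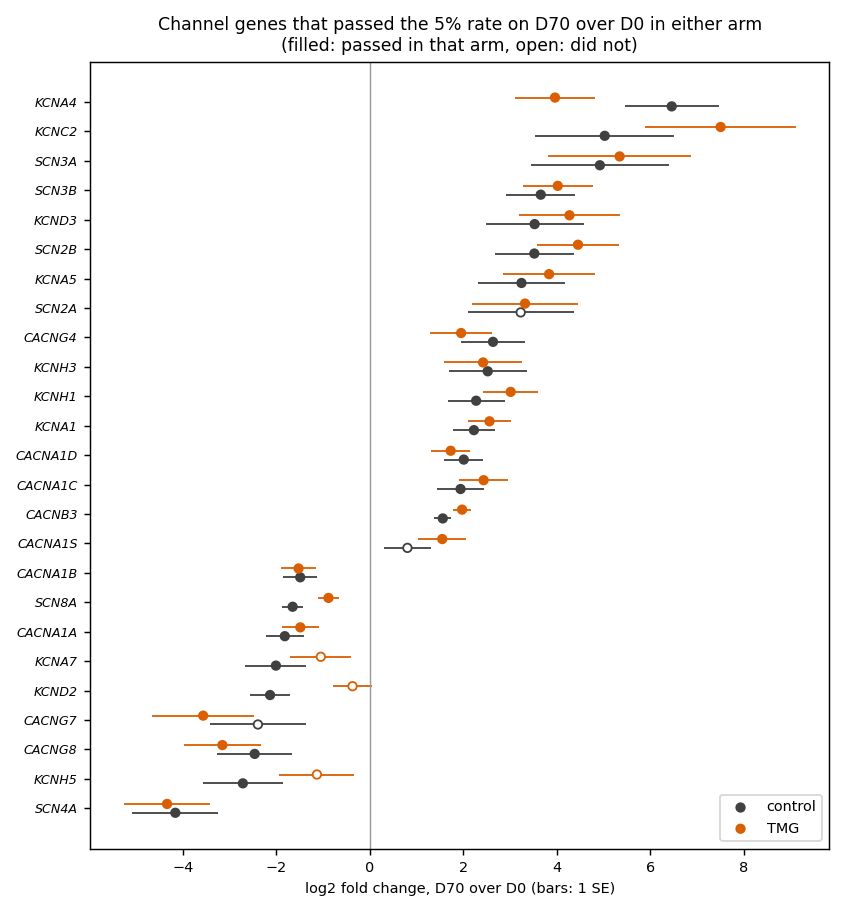
Log2 fold change of D70 over D0 with bars of 1 SE for 25 of the 28 channel genes past the 5% rate in either arm, the others not being reported here, control in grey and TMG in orange, filled where called in that arm. The arms share the sign for every gene shown, from SCN4A (−4.16 in control, −4.34 in TMG) to KCNA4 (6.46 and 3.96), the latter resting on 1 count in D0 control.

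Among the sodium channel genes, SCN3A, at chr2:165944036-166060560 of GRCh37, was at 0.371, 0.909, 0.48 and 0.309 CPM on D0 and at 28.4, 10.5, 31.9 and 0.277 CPM on D70. It was high in 3 of the D70 libraries and at its D0 level in D70 TMG 2, and rose by 4.92 on the log2 scale in control (SE 1.47, adjusted p = 0.0285 by edgeR), a call that was lost without D0 control 1 (4.43), D0 control 2 (5.68) or D70 control 1 (4.04). SCN2A, its neighbour at chr2:166051503-166248820, went from 1.67, 0.699, 1.17 and 1.24 CPM to 16.1, 6.28, 23.4 and 0.74 CPM, with D70 TMG 2 again at the level of D0. Its log2 fold change was 3.23 in control (SE 1.14, adjusted p = 0.0533), short of the threshold, and 3.32 in TMG cells (SE 1.14, adjusted p = 0.0491). The value in TMG cells was 4.27 without D70 TMG 2 and −0.71 without D70 TMG 1, and it lost its call in the latter case and without either D0 TMG library. The annotated ends of SCN2A and SCN3A overlap each other and 1 noncoding gene, and both are close paralogs of SCN1A, SCN7A and SCN9A on chromosome 2, so estimated counts could be divided among them.

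The beta subunits SCN3B and SCN2B rose alongside. SCN3B went from 2.78, 2.31, 3.09 and 2.27 CPM to 33.4, 31.1, 77.8 and 8.97 CPM, with every D70 library above every D0 library (log2 fold change 3.66 in control, SE 0.74, adjusted p = 0.00491 by edgeR; 3.71 without D70 control 2). SCN2B went from 0.556, 0.699, 0.412 and 0.618 CPM to 5.46, 9.09, 7.9 and 15.3 CPM and was highest in D70 TMG 2 (log2 fold change 3.52, SE 0.85, adjusted p = 0.0111), and its call was lost without D0 control 1 (3.39) or D0 control 2 (3.69). Its highest D70 values were in D70 TMG 2 and D70 control 2. On D30 it had 96 counts in D30 TMG 2, against 12, 17 and 16 in the other libraries. These are the libraries with high mesenchyme sums, and the part of such cells in its rise was not tested. SCN8A took the opposite course, at 23.9, 33.0, 47.9 and 52.6 CPM on D70, and fell by 1.65 in control (SE 0.22, adjusted p = 0.000533) and by 0.88 in TMG cells (SE 0.22, adjusted p = 0.0124), the latter a call lost without D70 TMG 1 or either D0 TMG library. All 4 D70 libraries lay below the lowest D0 value of 88.8 CPM. SCN4A fell by 4.16 to 0.771 and 1.45 CPM in control (SE 0.92, adjusted p = 0.00757), and without D70 control 1 by 3.77, no longer a call. SCN1A, the sodium channel of inhibitory interneurons, was at 3.34, 1.45, 5.14 and 0 CPM on D70 against 5.75 to 7.06 CPM on D0, with every D70 library below every D0 library, and was not called (log2 fold change −1.41 in control). SCN7A, SCN9A, SCN10A, SCN11A and SCN4B were not called over this span in either arm.

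**Figure D4:**
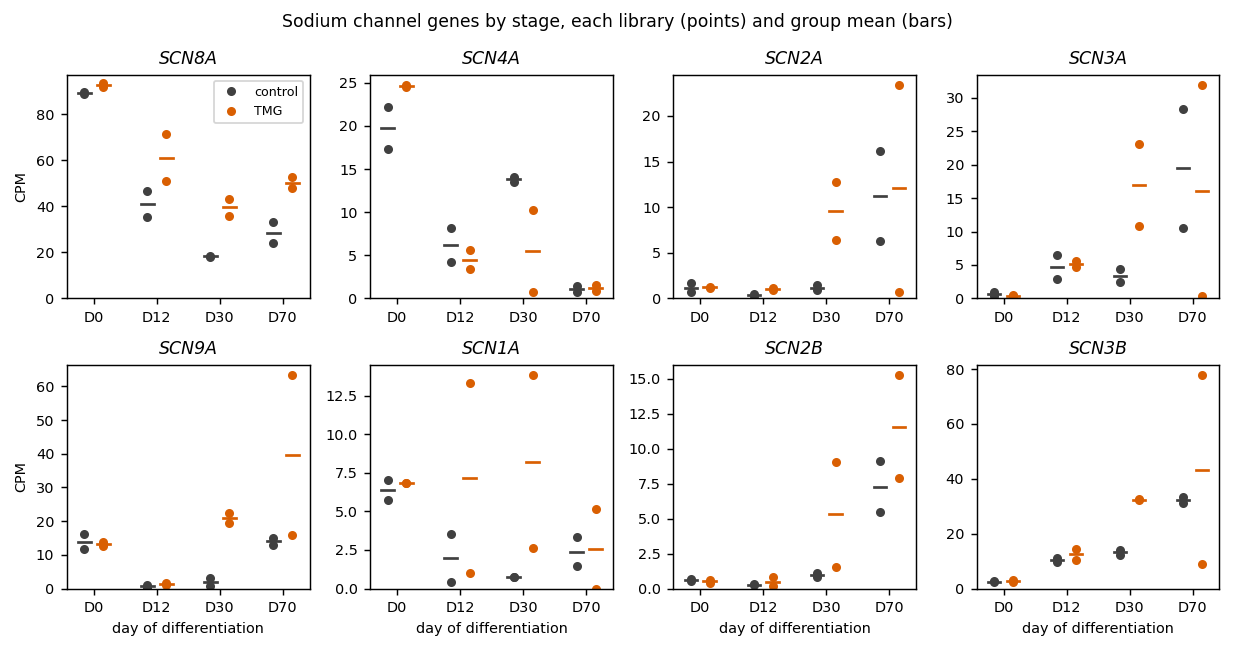
CPM of 8 sodium channel genes on D0, D12, D30 and D70, 1 point per library and a bar at the mean of each pair, control in grey and TMG in orange. SCN8A is highest on D0 (88.8 to 93.5 CPM) and lowest in D30 control (18.5 and 18.1 CPM), while SCN3A, SCN2A and SCN3B have their highest single values on D70, in TMG replicate 1 (31.9, 23.4 and 77.8 CPM).

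Among calcium channel pores, the L-type genes CACNA1C and CACNA1D rose and the presynaptic CACNA1A and CACNA1B fell. CACNA1C, an L-type pore of neurons, heart and smooth muscle, went from 14.1, 19.9, 14.3 and 14 CPM on D0 to 45.7, 85.1, 62.7 and 90 CPM on D70, without overlap (log2 fold change 1.94 in control, SE 0.51, adjusted p = 0.0163 by edgeR). Its 2 highest D70 values were in the 2 libraries with the highest mesenchyme sums, and their part in the result was not tested. With D70 from the replicate 1 libraries alone its log2 fold change was 1.46 and no longer called, and the call was also lost without D0 control 1 (1.74), D0 control 2 (2.21) or D70 control 2 (1.44). CACNA1D, the other neuronal L-type pore, went from 3.21, 3.01, 2.26 and 2.42 CPM to 10.7, 14.4, 8.3 and 7.31 CPM (log2 fold change 2.01, SE 0.42, adjusted p = 0.00543; 1.79 without D70 control 2). CACNA1A went from 74.3, 75.0, 56.3 and 61.8 CPM to 23.4, 18.9, 25.6 and 16.6 CPM, with a peak of 79.0 to 127 CPM on D12 between them, and fell by 1.82 (SE 0.40, adjusted p = 0.00749). CACNA1B fell by 1.49 (SE 0.37, adjusted p = 0.0123), to 19.3, 20.4, 23.5 and 9.34 CPM, a call lost without D0 control 2 (−1.37) or D70 control 1 (−1.45). CACNA1D shares exon sequence with CHDH on the other strand, CACNA1C with antisense transcripts, and CACNA1B and SCN8A each with a noncoding gene on the other strand.

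The other pores were not called from D0 to D70 in control, and some split by replicate. CACNA1H had the highest control mean per kilobase of the pores on D0, D12 and D30, lay between 130 and 211 CPM in all 12 libraries of those days, and was at 146, 76.0, 191 and 15.2 CPM on D70. CACNA1E was at 5.49 to 6.18 CPM on D0 and at 45.8, 7.89, 49.0 and 1.39 CPM on D70, high in both replicate 1 libraries and low in both replicate 2 libraries, with a log2 fold change in control of 0.40 without D70 control 1 and 2.94 without D70 control 2. CACNA1G, another T-type pore, showed the reverse order, 25.3, 93.8, 19 and 122 CPM on D70, and was also at 113 CPM in D30 TMG 2, so that its 3 highest values of all 16 libraries were in the 3 libraries with high mesenchyme sums. The part of those cells or of library quality in this order was not tested. Splits by replicate number also cannot be told apart from splits by the treatment tag of the labels. CACNA1S was called higher in TMG cells alone, at 1.19 and 0.74 CPM on D70, a call lost in TMG cells without D70 TMG 1 or either D0 TMG library, and its log2 fold change of 0.81 in control did not pass.

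Of the auxiliary calcium channel subunits, CACNB3 rose by 1.56 in control (SE 0.19, adjusted p = 0.000286 by edgeR), to 47.1, 43.1, 60.2 and 65.6 CPM, and at 15.4 CPM per kilobase had the highest control mean per length of the channel genes on D70. CACNB1, CACNB2 and CACNB4 were not called. CACNG4, an AMPA receptor auxiliary subunit, went from 4.57, 10.2, 9.54 and 9.07 CPM to 70.4, 21.3, 56.5 and 15.5 CPM and rose by 2.64 (SE 0.68, adjusted p = 0.0150), a call lost without D0 control 1 (2.19) or D70 control 1 (1.53). CACNG8, of the same group, went the other way, from 40.1, 28.6, 34.5 and 31.8 CPM to 6.11, 6.36, 6.56 and 0.832 CPM, and fell by 2.46 (SE 0.80, adjusted p = 0.0398), with the call lost when any 1 of the 4 control libraries was left out. CACNG7 went from 78.5, 60.3, 64.6 and 63.0 CPM to 15.3, 11.1, 10.7 and 0 CPM, and passed in TMG cells (log2 fold change −3.56, SE 1.09, adjusted p = 0.0319) but not in control (−2.39, SE 1.02, adjusted p = 0.10). Without D70 TMG 2, the library with a count of 0, its log2 fold change in TMG cells was −2.58 and still called, and the call was lost without either D0 TMG library. Of the CACNA2D genes none was called over this span, with the log2 fold change in control between −0.39 for CACNA2D2 and 3.52 for CACNA2D4, whose D70 values of 11.5, 29.3, 53.0 and 0.37 CPM were far apart.

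Potassium channels gave 9 rises and 3 falls in control among 29 tested, where 15% of all genes rose and 14.7% fell. KCNA1 rose by 2.23 (SE 0.45, adjusted p = 0.00459 by edgeR), to 11.3, 9.17, 5.53 and 7.49 CPM, and KCNA5 by 3.25 (SE 0.94, adjusted p = 0.0249), the latter to 15.2, 4.43, 11.7 and 1.48 CPM. KCND3, an A-type channel, went from 0.67 to 1.05 CPM on D0 to 8.29, 14.6, 26.4 and 1.29 CPM (log2 fold change 3.53, SE 1.05, adjusted p = 0.0279). KCND3 shares exon sequence with DDX20 and KCNH3 with MCRS1, both on the other strand. KCNH1 and KCNH3, of the ether-a-go-go family, rose by 2.28 (SE 0.61, adjusted p = 0.0177) and 2.52 (SE 0.83, adjusted p = 0.0416). Of these 9 genes KCNA1 and KCNA4 kept their call whichever 1 of the 4 control libraries was left out, and KCNA5, KCNC2, KCND3, KCNH1 and KCNH3 lost it in at least 2 of the 4 cases. Without D70 control 2, which had the high mesenchyme sum, the log2 fold change was 3.88 for KCNA5, 3.07 for KCND3, 1.9 for KCNH1 and 3.18 for KCNH3, and those of KCND3 and KCNH1 were no longer called. Without D70 control 1 it was 2.09 for KCNA5 and 1.28 for KCNH3, neither of them called. KCNA4 had 94 counts over the D70 control libraries against 1 on D0, a ratio of 102 with a 95% exact counting interval from 17.9 to 4087, and KCNC2 had 73 against 2, a ratio of 39.8 with an interval from 10.6 to 335. The D70 control libraries differed for both, with KCNA4 at 1.41 and 5.79 CPM and KCNC2 at 4.24 and 0.563 CPM. Without D70 control 1 the KCNC2 ratio was 8.59, from 7 counts, with an interval from 1.64 to 84.7, and without D70 control 2 the KCNA4 ratio was 43.1, with an interval from 6.97 to 1779.

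The 3 potassium channel genes that fell in control were KCND2, KCNH5 and KCNA7. KCND2 kept its call whichever control library of D0 or D70 was left out, and KCNH5 and KCNA7 lost theirs in every such case. KCND2 was at 6.69 and 8.53 CPM in D70 control (log2 fold change −2.13 against D0, SE 0.43, adjusted p = 0.00477 by edgeR). In D70 TMG it was at 24.1 and 14.8 CPM, against 24.8 and 25.4 CPM in D0 TMG, with a log2 fold change of −0.37 (SE 0.41, adjusted p = 0.532). The difference between the arms over this span was not tested as such. KCNQ3, a subunit of the M current that damps repetitive firing, stood at 23.5, 3.62, 23.3 and 1.02 CPM on D70 against 8.65 to 10.5 CPM on D0, high in both replicate 1 libraries and low in both others, and without D70 control 1 its log2 fold change turned from 0.64 to −1.27. KCNA6 and KCNH7 were not called, and KCNH2, the cardiac rapid delayed rectifier, was at 29.4 and 28.6 CPM in D70 control against 16.3 and 13 CPM on D0 (log2 fold change 0.99, SE 0.36, adjusted p = 0.0583).

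Several channel genes were called in no contrast of the edgeR fit to all 16 libraries. KCNA6, with the highest mean over all libraries among the KCNA genes, lay between 11.8 and 21.2 CPM up to D30 and at 34.0, 12.2, 28.2 and 5.55 CPM on D70. KCNC4, an A-type member of its family, lay between 22.8 and 31.4 CPM on D0 and between 5.73 and 14.7 CPM on D70. CACNA2D2 lay between 21.9 and 79.8 CPM in all libraries and CACNB1 between 14.1 and 27.0 CPM. KCNA2, the axonal partner of KCNA1 in mature neurons, reached 6.04 CPM in D70 control 2 and at most 2.27 CPM in any other library, and from D0 to D70 in control it was called without D70 control 1 (log2 fold change 3.52). KCNA6, KCNC4, CACNA2D2 and SCN10A were likewise called under 1 or more of the alternative settings. SCN10A was at or under 0.151 CPM in every library but D30 TMG 1 and 2, at 1.85 and 3.41 CPM.

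On D30 many sodium channel genes, the alpha-2-delta genes CACNA2D1 and CACNA2D3 and the M-current genes KCNQ3 and KCNQ5 were measured at higher levels in both TMG libraries than in both control libraries, as for SCN8A at 35.9 and 43.2 CPM against 18.5 and 18.1 CPM. The main test called none of these differences. In that fit, edgeR called 0 channel genes and 0 of all genes tested for TMG over control at any stage, 0.0% each. With a replicate block, a pairing that the labels do not state, edgeR called KCNC2, KCNQ3 and SCN8A on D30, where 0.961% of all genes were called. On D30, 28 channel genes had an unadjusted p under 0.05, of which 23 were higher and 5 lower in TMG, where 7.1% of all genes were higher and 4.89% lower by that measure. DESeq2 called 12 of the 63 channel genes to which it gave an adjusted p, all higher, where it called 3.13% of all genes and 1.98% higher. The libraries of the arms did not overlap for 39 channel genes that were higher and 12 that were lower, against 23.1% and 21.0% of all genes. The median log2 fold change was 0.94 over the 67 genes and 0.01 over all genes, with 2.21 for sodium, 0.35 for calcium and 1.15 for potassium channels, and 49 of the 67 were above 0. Without SCN10A, which passed the filter only through the D30 TMG libraries, 22 of 66 were higher at an unadjusted p under 0.05, 38 were higher without overlap, and the median was 0.93 in all and 2.08 for sodium channels. On D0, D12 and D70 the medians over the genes above the counting floor were −0.03, 0.12 and −0.04. Of the 11 marker lists, 6 had higher sums in both TMG libraries than in both control libraries on D30. The 10 pan-neuronal markers summed to 843.3 and 1070 CPM in TMG against 579.3 and 695.5 CPM in control, the 5 astroglia markers to 34.87 and 71.55 against 9.962 and 13.35 CPM, the 4 sensory neuron markers to 63.34 and 47.89 against 20.3 and 32.57 CPM, and the 4 retina markers to 19.04 and 21.39 against 2.913 and 6.775 CPM. The others of the 6 were the mesenchyme markers and the 6 pluripotency markers, at 85.1 and 38.52 against 38.16 and 26.8 CPM. In D30 TMG, a single gene held most of each of the astroglia, sensory neuron and retina sums. These genes were SLC1A2 (28.3 and 59.5 CPM), PRPH (50.9 and 31.8 CPM) and CRX (17.4 and 18.3 CPM). Of the pan-neuronal markers, SYT1 alone was lower without overlap, at 53.4 and 36.5 CPM in TMG against 80.4 and 58.5 CPM in control. POU5F1 was at 9.13 and 5.49 CPM in D30 TMG against 0.094 and 0.401 CPM in D30 control. SCN8A, KCND2 and SCN9A, higher in TMG on D30, were also at 88.8 to 93.5, 24.8 to 37.3 and 11.6 to 16.1 CPM in undifferentiated cells. The part of these cell types in the differences was not tested.

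**Figure D5:**
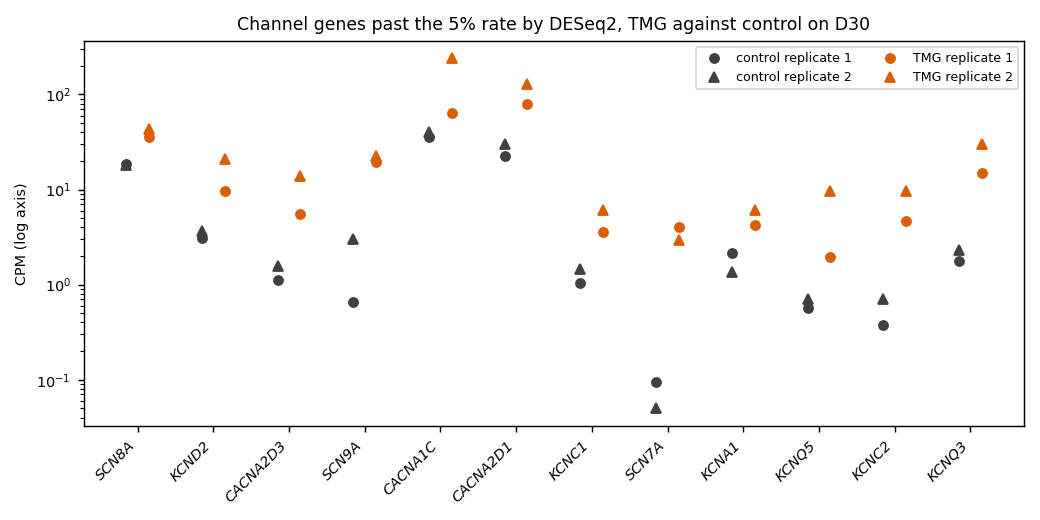
CPM on a log axis of the 12 channel genes past the 5% rate by DESeq2 for TMG against control on D30, circles for replicate 1 and triangles for replicate 2, control in grey and TMG in orange. Both TMG libraries lie above both control libraries for each of the 12 genes, and the mesenchyme-rich D30 TMG 2 is the higher of the TMG pair for 11 of them, SCN7A being the exception.

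SCN8A and KCND2 had the smallest p-values by edgeR among the channel genes on D30, and SCN9A had a smaller one than both by DESeq2. SCN8A was at 18.5 and 18.1 CPM in control and at 35.9 and 43.2 CPM in TMG, so that both pairs were tight and apart by about their own level (log2 fold change 1.11, SE 0.22, unadjusted p = 0.000378 and adjusted p = 0.155 by edgeR, adjusted p = 0.00168 by DESeq2). The log2 fold change was 0.97 without D30 TMG 2 and 1.24 without D30 TMG 1. KCND2 was at 3.10 and 3.66 CPM in control and at 9.71 and 21.0 CPM in TMG (log2 fold change 2.18, SE 0.44, adjusted p = 0.159 by edgeR and 0.000773 by DESeq2), and its log2 fold change was 1.52 without D30 TMG 2. SCN9A was at 0.658 and 3.01 CPM in control and at 19.5 and 22.5 CPM in TMG (log2 fold change 3.46, SE 0.79, adjusted p = 0.180 by edgeR and 0.000661 by DESeq2), and it was 3.35 without D30 TMG 2. SCN7A, an atypical sodium channel that is not opened by voltage, had 2 counts over both control libraries and 73 over both TMG libraries, a ratio of 53.5 with a 95% exact counting interval from 14.3 to 450, and of 62.4 without D30 TMG 2.

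The immature neuronal sodium channels followed the same order on D30 short of any call. SCN2A was at 1.41 and 0.953 CPM in control and at 6.41 and 12.8 CPM in TMG (log2 fold change 3.03, SE 1.14, unadjusted p = 0.0224 and adjusted p = 0.336 by edgeR; 2.45 without D30 TMG 2), and SCN3A at 4.32 and 2.46 against 10.9 and 23.1 CPM (log2 fold change 2.33, and 1.69 without D30 TMG 2). SCN3B was at 14.1 and 12.3 against 32.5 and 32.2 CPM (log2 fold change 1.29, and 1.3 without D30 TMG 2). SCN10A, a sensory neuron sodium channel, had 3 counts over both control libraries and 55 over both TMG libraries. It passed the expression filter only through those TMG libraries, so it had to differ here and no ratio or test of it is given. The 14 sodium channel genes together summed to 65.4 and 62.6 CPM in control and to 140.2 and 179.5 CPM in TMG on D30.

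Among calcium channel genes, the alpha-2-delta subunits CACNA2D1 and CACNA2D3, which carry pores to the membrane, and CACNA1C were called by DESeq2. CACNA2D1 was at 22.7 and 29.8 CPM in control and at 78.4 and 128 CPM in TMG (log2 fold change 1.97, SE 0.51, adjusted p = 0.213 by edgeR and 0.0115 by DESeq2). CACNA2D3 was at 1.13 and 1.56 against 5.54 and 13.8 CPM (log2 fold change 2.83, SE 0.62, adjusted p = 0.171 by edgeR and 0.00181 by DESeq2). Without D30 TMG 2 the log2 fold change was 1.57 for CACNA2D1 and 2.02 for CACNA2D3. CACNA1C was at 36.0 and 40.4 against 63.7 and 240 CPM (log2 fold change 1.99, SE 0.51, adjusted p = 0.206 by edgeR and 0.0111 by DESeq2), and without D30 TMG 2, the library with the mesenchyme sum of 30340 CPM, its log2 fold change was 0.74. CACNA1B went against this order, at 38.3 and 31.9 CPM in control and 16.7 and 21.6 CPM in TMG (log2 fold change −0.87, SE 0.36, unadjusted p = 0.0354 and adjusted p = 0.380 by edgeR). CACNA1S, KCNA7, KCND1 and KCNH2 were the other 4 genes lower at an unadjusted p under 0.05.

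Beside KCND2, DESeq2 called the potassium channel genes KCNA1, KCNC1, KCNC2, KCNQ3 and KCNQ5 on D30. The M-current subunit KCNQ3 was at 1.79 and 2.31 CPM in control and at 14.8 and 29.8 CPM in TMG (log2 fold change 3.43, SE 1.14, adjusted p = 0.281 by edgeR and 0.0289 by DESeq2). KCNC1 and KCNC2, fast delayed rectifiers of fast-firing neurons, were at 1.03 and 1.46 against 3.59 and 6.15 CPM and at 0.376 and 0.703 against 4.66 and 9.65 CPM. Both TMG values lay above both control values for each gene. KCNQ5 was at 0.564 and 0.703 against 1.94 and 9.56 CPM, and KCNA1 at 2.16 and 1.35 against 4.27 and 6.15 CPM. Without D30 TMG 2 the log2 fold change was 2.84 for KCNQ3, 1.51 for KCNC1, 3.05 for KCNC2, 1.59 for KCNQ5 and 1.29 for KCNA1. Leaving out D30 TMG 1, so that D30 TMG 2 alone stood for the arm, edgeR called 4 channel genes, where 0.673% of all genes were called, and leaving out any other of the 4 libraries it called 0, as of all genes.

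On the other days fewer channel genes had an unadjusted p under 0.05. The libraries of the arms did not overlap for 7 channel genes that were higher in TMG and 17 that were lower on D0, against 19.7% and 16.9% of all genes, for 16 and 10 on D12, against 17.8% and 16.5%, and for 5 and 6 on D70, against 9.77% and 12.4%. On D0 no channel gene had an unadjusted p under 0.05 by edgeR, where 1.26% of all genes did, and DESeq2 called 0, at a background of 0.0206%. On D12 CACNA1D, CACNA2D3 and SCN8A did, all higher in TMG, against 2.48% of all genes in either direction and 1.54% higher, with 0 by DESeq2, at a background of 0.0454% in all and 0.0371% higher. On D70 SCN8A, KCND2, CACNB3 and KCNH1 did, all higher in TMG, against 5.49% in either direction and 2.61% higher, with 0 by DESeq2, at a background of 0.296%. SCN8A was the only channel gene with an unadjusted p under 0.05 on D12, D30 and D70, at log2 fold changes of 0.57 (SE 0.22), 1.11 (SE 0.22) and 0.82 (SE 0.22) by edgeR, and the adjusted p was 1.0, 0.155 and 0.856. Both TMG libraries were above both control libraries on each of the 4 stages for this gene, by far less on D0, where 88.8 and 89.6 CPM stood against 93.5 and 91.9 CPM. On D12 its values were 35.5 and 46.7 CPM in control and 50.9 and 71.2 CPM in TMG, and on D70 they were 23.9 and 33.0 CPM against 47.9 and 52.6 CPM. KCND2, CACNB3 and KCNH1 passed an unadjusted 0.05 on both D30 and D70.

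The change of the TMG effect between stages was tested directly. From D12 to D30 edgeR and DESeq2 called 0 channel genes each, at backgrounds of 0.0% and 0.0793%, with 8 at an unadjusted p under 0.05 by edgeR against 3.41% of all genes. KCND2 had the smallest p of them, with its TMG effect 2.44 higher on D30 on the log2 scale (SE 0.62, unadjusted p = 0.0023 and adjusted p = 1.0 by edgeR). From D30 to D70 both tools again called 0, at backgrounds of 0.0% and 0.112%, with 11 at an unadjusted p under 0.05 against 4.03%, and 10 of these had a lower TMG effect on D70, against 2.42% of all genes. KCNA1 led them, at −2.24 (SE 0.62, unadjusted p = 0.00415 and adjusted p = 1.0).

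The D70 TMG libraries were the least alike of the 8 pairs, and the channel genes show it. D70 TMG 2 was the lowest of the 4 D70 libraries for 36 of the 67 genes, against 32.5% of all genes tested. Its value times 4 was still under that of each other D70 library for 15 of them, against 5.95% of all genes, and these include SCN1A, SCN2A, SCN3A, CACNA1E, CACNA1H, KCNB2 and KCND3. It was the highest of the D70 libraries for SCN2B (15.3 CPM), CACNA1G (122 CPM), CACNA1C (90 CPM), KCNQ5 (21.3 CPM) and KCNH6, an ether-a-go-go related channel, at 13.6 CPM against 0.0643, 9.01 and 0.474 CPM in D70 control 1, D70 control 2 and D70 TMG 1. When D70 TMG 1 was left out, so that this library alone stood for the arm, edgeR called 11 channel genes lower in TMG on D70, where 2.15% of all genes were called lower, and with D70 TMG 2 left out it called 0, against 0.0116% of all genes. SCN8A kept its order either way, with a log2 fold change of 0.88 without D70 TMG 1 and 0.76 without D70 TMG 2.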

How the data were processed

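Per the labels and the study's methods, ribosomal RNA was depleted before library preparation, reads were aligned with Bowtie2 to hg19, and the authors deposited RSEM 1.2.12 estimated counts per Ensembl gene for 16 libraries. The deposited estimated counts are whole numbers and are not normalized; how they were rounded and whether strand was used are not given in the sources used here. Because RSEM shares ambiguous reads among transcripts, counts of paralogs and overlapping genes are uncertain. Samples were grouped by title, since the treatment tag names the other arm for 8 libraries. The filterByExpr function, given the 8 groups (minimum count 10, minimum total 15), left 24249 of 57736 genes. One edgeR 4.0.16 quasi-likelihood model with TMM normalization was fitted to all 16 libraries (8 residual degrees of freedom), with 14 contrasts, Benjamini-Hochberg adjustment over all genes tested and a false discovery rate of 5%. The script was tested on simulated counts. DESeq2 1.42.0, other normalization, no filter, a replicate block, the arms averaged, the 4 libraries compared and leaving out each library were alternatives, and D70 from replicate 1 alone was added after seeing the data. Ratios with 1 to 3 counts in a group carry exact intervals that cover counting error only. Between replicates, chi-square per degree of freedom lay between 27.05 and 164.7, so no pair was a duplicate.

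The channel genes and lists were chosen with earlier results of these data known. Values in each library are given for genes called in a contrast (up to 3 per family by p in D70 over D0 in control, and all called for TMG by either tool), the most abundant gene of each family, genes at an unadjusted p under 0.05 for TMG at 2 or more stages, and a list of central neuron channels. Gene positions are from GENCODE 44 lifted to GRCh37, and promoters from RefSeq on GRCh38.p14. Values of some genes in these families and lists are not reported here, though they are in the counts and sums.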

Additional observations from a re-analysis of the deposited data

How the results depend on the processing

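With 2 libraries per group, the number of channel genes called moved with the processing, and the cause was not tested. Each count is followed by the share of all genes called in the same fit. For TMG over control on D30 the count was 12 by DESeq2 (3.13%), 1 with no filter on low counts (0.0487%) and 3 with the replicate block (0.961%), against 0. For D12 over D0 in control, against 15, it was 34 from the 4 libraries compared (27.4%), 27 with the arms averaged (35.4%) and 8 with no filter (7.13%), and in TMG, against 15, it was 31 from the 4 libraries (42.6%) and 9 with no filter (7.23%). For D30 over D12 in control, against 3, it was 14 from the 4 libraries (15.6%), 9 by DESeq2 (12.7%) and 11 with the arms averaged (11.7%), and in TMG, against 2, it was 0 from the 4 libraries (0.00974%) and 7 by DESeq2 (5.79%). For D70 over D30 in control, against 1, it was 0 from the 4 libraries (0.00489%), 16 with D70 from replicate 1 alone (5.78%), 19 by DESeq2 (8.38%), 7 with the arms averaged (3.67%) and 3 with no filter (0.767%), and in TMG, against 0, it was 2 by DESeq2 (1.85%). For D70 over D0 it was 37 with the arms averaged in control (48.4%), against 24, and 8 from the 4 libraries in TMG (13.4%), against 25. Leaving out 1 library gave 4 to 8 (3.96% to 6.96%) and 4 to 6 (3.21% to 6.36%) for D12 over D0 in control and TMG, 0 to 0 (0.0% to 0.775%) and 0 to 3 (0.0% to 0.692%) for D30 over D12, 0 to 4 (0.0% to 0.757%) and 0 to 15 (0.00769% to 6.29%) for D70 over D30, and 10 to 20 (14.2% to 23.9%) and 5 to 27 (10.9% to 25.5%) for D70 over D0. It gave 0 to 4 (0.0% to 0.673%) for TMG on D30, 0 to 11 (0.0% to 3.07%) for TMG on D70 and 0 to 12 (0.0% to 1.39%) for the change of the TMG effect from D30 to D70. For D70 over D0 in TMG the count was 27 without D70 TMG 2 (24.4%), 26 without D70 TMG 1 (25.5%), 5 without D0 TMG 1 (10.9%) and 6 without D0 TMG 2 (11.0%).

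Of the log2 fold changes for D70 over D0 in control, none of those that turned sign was called with all 16 libraries. With D70 from replicate 1 alone CACNA1G was −0.042, CACNB2 0.059 and KCNH7 0.41, with the arms averaged CACNA2D1 was 0.050 and KCNH7 0.19, and CACNA2D1 was 0.0017 from the 4 libraries and 0.0073 with no filter. Leaving out 1 library moved CACNA1G between −0.066 and 1.82, CACNA2D1 between −1.27 and 0.64 (0.05 without D0 control 1), CACNB2 between −0.54 and 0.040, CACNB4 between −1.12 and 0.037, KCNA6 between −0.66 and 0.84, KCNH7 between −0.93 and 0.39 and KCNQ3 between −1.27 and 1.44. In TMG cells it moved SCN2A, called with all libraries, between −0.71 (without D70 TMG 1) and 4.27 (without D70 TMG 2). With RLE normalization no count of calls moved by over 1.5 times and none of the named values turned sign. The replicate numbers pair nothing in the labels, and same-numbered deviations correlated between the arms at 0.045 (D0), 0.367 (D12), 0.223 (D30) and 0.607 (D70). The treatment tag, which names the other arm than the title for 8 libraries, divides the libraries as the replicate number does. These correlations therefore cannot be told apart from a difference by that tag. Depth limits the low genes, since 3 counts are 0.147 to 0.291 CPM.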

Other observations

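Genes that work beside these channels were listed from general knowledge and are given as values, where from D0 to D70 in control 15% of all genes tested rose and 14.7% fell. Of 8 partners of the axon initial segment tested, 4 rose from D0 to D70 in control by edgeR and 0 fell: FGF14 and FGF11, which bind sodium channels, NRCAM, and the scaffold gene SPTBN4. FGF14 was at 0.432 and 0.63 CPM in D0 control and at 7.65 and 4.18 CPM in D70 control (log2 fold change 3.47, adjusted p = 0.000976 by edgeR). Of these 4 it alone kept its call whichever 1 of the 4 control libraries was left out. Of 13 auxiliary subunits of voltage-gated potassium channels, KCNE1 and KCNE4 rose and 0 fell. Both split within the D70 arms, with KCNE1 at 25.5, 1.13, 11.5 and 0.277 CPM and KCNE4 at 1.03, 14.2, 21.1 and 3.51 CPM in D70 control 1, D70 control 2, D70 TMG 1 and D70 TMG 2, against at most 0.371 CPM for either on D0. The log2 fold change of KCNE1 in control was 1.62 without D70 control 1 and that of KCNE4 3.27 without D70 control 2, neither of them then a call. Outside D70, KCNE4 was at 1.07 CPM in D30 TMG 1 and at or under 0.502 CPM in every other library. It thus needed D70 libraries to pass the expression filter, which favoured its rise. Of 9 silent potassium channel subunits, which form channels only with other subunits, 0 rose and KCNG3 and KCNS3 fell. KCNG3 was at 36.3 to 38.8 CPM in the D0 libraries and at 0.553 to 2.01 CPM in those of D70. Of 24 other potassium, pacemaker and leak channel genes, 6 rose and 4 fell, among them KCNJ3, an inward rectifier (5.48), KCNK3, a leak potassium channel (4.24), and NALCN, a sodium leak channel (1.92), which rose, and KCNN2, a calcium-activated potassium channel (−5.69), and HCN4, a pacemaker channel (−3.11), which fell. KCNJ3 too differed within the control pair, at 3.60 and 23.3 CPM on D70, with a log2 fold change of 3.59 without D70 control 2, still a call.

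For TMG over control on D30, edgeR called 0 genes in each of these 4 lists, with 9 at an unadjusted p under 0.05, all higher, where 7.1% of all genes were higher by that measure. DESeq2 called NALCN (adjusted p = 0.00955) and KCNK3 (adjusted p = 0.0157), among others. NALCN was at 1.79 and 1.35 CPM in control and at 4.37 and 10.2 CPM in TMG, with the mesenchyme-rich D30 TMG 2 the higher of that pair, and its log2 fold change was 1.48 without that library.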
